A study of Mus musculus with 5 samples.

Results

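The 10 genes described here were immediate early genes, Fos, Fosb, Junb, Egr1, Egr2, Arc, Npas4, Nr4a1, Dusp1 and Ier2. They were matched by mouse symbol among 55573 genes in the count tables, and all 10 were among the 23592 genes with enough reads to be tested. Bulk RNA sequencing was performed on the right hemisphere of C57BL/6 female mice, 7 to 8 weeks old at inoculation, that carried a GL261 glioma in the right caudate nucleus-putamen. GL261 is a murine glioma line, here transduced with luciferase and mKate2. Both groups carried this tumor and came from mice chosen for a comparable bioluminescence signal, and both had sessions on days 21 and 24 with tissue taken 24 h after the last session. The vehicle group (3 libraries, labelled Vehicule) received InVivoPure dilution buffer, and the UMBO group (2 libraries) received ultrasound-mediated blood-brain barrier opening, in which low-intensity pulsed ultrasound acts on injected SonoVue microbubbles. Whether vehicle mice were given microbubbles or a sham session was not given in the sources used here. Each library came from 1 mouse, so the spread between libraries was a spread between mice.

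Immediate early genes are transcribed within minutes of a stimulus without new protein synthesis, because their activators are already present in the cell. Calcium entry and growth factor signalling reach them through the kinases ERK, RSK, MSK and CaMKIV, which act on SRF with its ternary complex partners and on CREB bound to cyclic AMP response elements. In brain they mark neurons that have recently been active, and most of their transcripts decay quickly, whereas in other cells several of them also respond to mitogens and to stress. The tissue here was taken a day after the last session, so the levels describe that time point.

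The promoter stretches of 5 of the genes are shown because they carry these elements and because the genes differed in where they were highest, with Fos and Junb highest in 1 UMBO library and Nr4a1 and Dusp1 lower in both. They were taken from RefSeq (GRCm38.p6) as the bases upstream of the annotated start, up to 250, and are written 5′ to 3′ on the strand of the gene. Fos lies at chr12:85473640-85473889 (+), Junb at chr8:84978749-84978998 (-), Egr2 at chr10:67537619-67537868 (+), Nr4a1 at chr15:101266596-101266845 (+) and Dusp1 at chr17:26508520-26508722 (-). Capitals mark the cyclic AMP response element core TGACG on either strand, its palindrome TGACGTCA, which contains the core, and the CArG box, the SRF site.
Fos: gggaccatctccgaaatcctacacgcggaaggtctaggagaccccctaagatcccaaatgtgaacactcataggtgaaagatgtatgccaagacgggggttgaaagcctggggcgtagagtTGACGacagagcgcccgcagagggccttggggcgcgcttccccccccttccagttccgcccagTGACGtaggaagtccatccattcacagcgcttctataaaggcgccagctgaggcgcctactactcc
Junb: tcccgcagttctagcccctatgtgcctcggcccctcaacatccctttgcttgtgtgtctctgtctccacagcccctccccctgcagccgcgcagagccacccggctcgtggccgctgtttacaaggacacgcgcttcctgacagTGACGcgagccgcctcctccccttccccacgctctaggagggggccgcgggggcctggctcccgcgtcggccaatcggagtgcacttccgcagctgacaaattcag
Egr2: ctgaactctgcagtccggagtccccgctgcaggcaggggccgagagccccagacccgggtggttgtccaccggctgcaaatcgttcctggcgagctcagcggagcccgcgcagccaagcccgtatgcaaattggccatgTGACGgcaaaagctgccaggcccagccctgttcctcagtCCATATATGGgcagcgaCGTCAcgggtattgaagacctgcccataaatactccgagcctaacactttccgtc
Nr4a1: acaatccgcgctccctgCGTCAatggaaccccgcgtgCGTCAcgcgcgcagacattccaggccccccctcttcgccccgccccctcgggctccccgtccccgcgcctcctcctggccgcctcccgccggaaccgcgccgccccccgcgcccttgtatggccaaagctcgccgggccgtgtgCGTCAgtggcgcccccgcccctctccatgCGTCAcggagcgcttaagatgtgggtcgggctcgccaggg
Dusp1: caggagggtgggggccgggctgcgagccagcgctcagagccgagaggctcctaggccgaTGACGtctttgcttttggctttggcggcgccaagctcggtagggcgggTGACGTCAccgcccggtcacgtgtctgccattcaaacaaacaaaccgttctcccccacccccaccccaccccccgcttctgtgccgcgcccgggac

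Windows of 300 bases, 250 before and 50 after the start, were found for 7 of the 10 genes (Fos, Fosb, Junb, Egr2, Npas4, Nr4a1 and Dusp1). Where a gene had several windows, a motif was counted if any of them held it. The core TGACG was present on at least 1 strand for 7 of 7 genes, against 23.0% of all 27025 genes with a window. Egr2 had 5 windows, of which 3 held the core. Those 3 all held the CArG box as well, and the one shown had the longest upstream stretch, at 250 bases. The palindrome TGACGTCA was present for Dusp1 (2.03% of genes) and the CArG box for Egr2 (1.81%). The EGR site GCGNGGGCG was present for Fosb and Nr4a1 (6.27%), the TATA box sequence TATAAA for Fos and Junb (15.7%), and the AP-1 site TGACTCA for 0 of 7 (5.95%). The TATAAA of Fos began 33 bases before the start, and that of Junb at the start itself, beyond the stretch shown. Both strands were searched for every motif. The core was present both in the genes that were highest in 1 UMBO library and in those lower in both.

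The libraries held 59736771 to 86164159 counts, and the 10 genes were covered by 260 to 18227 reads each in every library, so counting error was small beside the spread between mice. No gene of the 23592 tested had an adjusted p under 0.05 with edgeR's quasi-likelihood test (0%), where the lowest adjusted p was 0.497, while 1738 had an unadjusted p under 0.05. DESeq2 called 42 genes, none of them among the 10. None of the neuron or striatal markers was at 0 in any library. The summed level of 12 neuron markers was 11135, 7602 and 8076 CPM (counts scaled to TMM-normalized library sizes) in the vehicle libraries against 7994 and 4023 CPM in the UMBO libraries, and 10 markers of striatal projection neurons, the main cell of the injected region, summed to 1674, 1552 and 1030 against 908 and 1123 CPM. Other lists had higher sums in both UMBO libraries than in all vehicle libraries, with replicate 2 the highest. The sums of 10 microglia and macrophage markers were 430, 799 and 541 against 921 and 1509 CPM, those of 10 endothelial markers 184, 261 and 256 against 309 and 371 CPM, and those of 10 proliferation genes 50.0, 108 and 36.5 against 114 and 465 CPM. The astrocyte filament gene Gfap was at 214, 515 and 388 against 1396 and 1636 CPM. Its DESeq2 adjusted p was 0.00304 and its edgeR adjusted p 0.497. Gfap was 1 of 8 astrocyte markers, of which 5 had positive and 3 negative log2 fold changes. The sums of the 8 overlapped between the groups, at 4478, 4063 and 5361 against 6005 and 3772 CPM. UMBO replicate 2 stood apart further, with the lowest neuron sum and, for 10 heat shock genes, the highest sum (4243 CPM, against 2622 to 3011 CPM in the other libraries). In bulk tissue fewer cells of a type and less RNA per cell cannot be told apart.

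In these hemispheres Egr1, Arc, Npas4, Nr4a1 and Dusp1 were lower in both UMBO libraries than in all vehicle libraries, at 0.494 to 0.699 of the vehicle mean on the TMM scale. For Npas4, Nr4a1 and Dusp1 this separation was present with TMM and absent with scaling by library size only, which left 2 of the 10 genes (Egr1 and Arc) with both UMBO libraries lower, against 9.01% of all genes. Fos, Junb and Ier2 were highest in UMBO replicate 2, while in UMBO replicate 1 Fos was below the vehicle range and Junb and Ier2 were within it. Fosb and Egr2 overlapped between groups. None passed the adjusted test, and the 10 adjusted p values of edgeR's quasi-likelihood test with Benjamini-Hochberg adjustment ran from 0.497 to 0.821. The groups did not overlap, with UMBO lower, for 5 of the 10 genes, against 11.4% of all genes tested, and with UMBO higher for 0 of the 10, against 11.5%. An unadjusted p under 0.05 was reached on the lower side by 2 of the 10 (Egr1 and Arc), against 2.06% of all genes, and on the higher side by 0 of the 10, against 5.30%. The median log2 fold change of the 10 was -0.41, beside 0.01 over all genes tested.

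**Figure D1:**
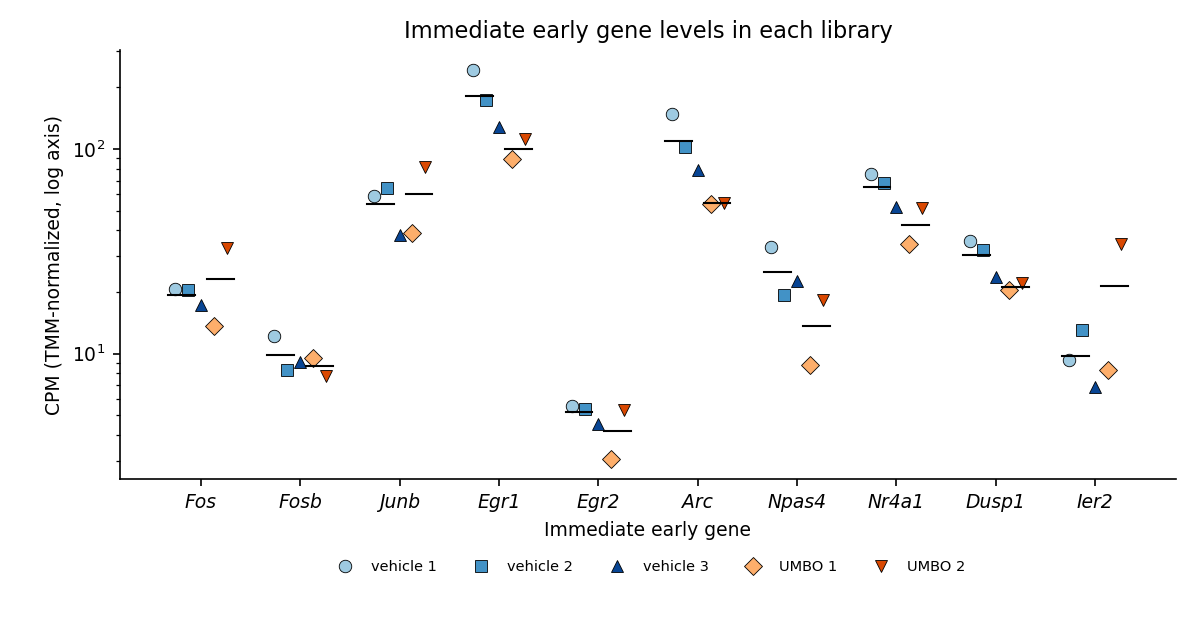
Level of each immediate early gene in each library, as TMM-normalized CPM on a log axis. Each marker is 1 library, with the 3 vehicle and 2 UMBO libraries in separate colors. Egr1, Arc, Npas4, Nr4a1 and Dusp1 show both UMBO markers below all vehicle markers, and Fos, Junb and Ier2 show UMBO replicate 2 on top.

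Among the genes of neuronal activity, Arc encodes a capsid-like protein that is carried to dendrites and drives removal of AMPA receptors from synapses. The gene lies at chr15:74669083-74672570 (-) in GRCm38. Arc stood at 148, 103 and 78.8 CPM in vehicle replicates 1 to 3 and at 53.8 and 54.6 CPM in UMBO replicates 1 and 2. The UMBO libraries were nearly equal and both lay below the lowest vehicle library, which itself was far from the highest. The vehicle mean was 109.8 ± 35.3 (SD, n = 3) and the UMBO mean 54.2 ± 0.528 (SD, n = 2). The log2 fold change was -1.02 (SE 0.297), with an unadjusted p of 0.0140 and an adjusted p of 0.497 (edgeR's quasi-likelihood test). Among the 10 genes this was the lowest fold change, and it lay between -1.21 and -0.74 when each library was left out in turn.

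Npas4 encodes a bHLH-PAS transcription factor that is induced by depolarization and calcium and is largely neuronal. Its levels were 33.1, 19.2 and 22.6 CPM in the vehicle libraries against 8.76 and 18.4 CPM in the UMBO libraries. Both UMBO libraries were below the vehicle range, but UMBO replicate 2 only just. The log2 fold change was -0.88 (SE 0.396), with an adjusted p of 0.497 (edgeR's quasi-likelihood test). Without UMBO replicate 1 it was -0.47, and without UMBO replicate 2 it was -1.51.

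The zinc finger transcription factors Egr1 and Egr2 bind the same GC-rich site, and Egr1, also called Zif268, is a standard marker of synaptic plasticity. Egr1 lies at chr18:34859823-34864984 (+). It stood at 244, 173 and 128 CPM in the vehicle libraries and at 89.0 and 112 CPM in the UMBO libraries. The groups did not overlap, and vehicle replicate 1 was the highest, as for Arc. The means were 182 ± 58.4 (SD, n = 3) and 100.3 ± 15.9 CPM (SD, n = 2). The log2 fold change was -0.86 (SE 0.319), with an unadjusted p of 0.0360 and an adjusted p of 0.497 (edgeR's quasi-likelihood test). Egr2, better known for its part in Schwann cell myelination, was far lower, at 5.56, 5.37 and 4.54 CPM in the vehicle libraries against 3.04 and 5.30 CPM in the UMBO libraries. It overlapped between the groups through UMBO replicate 2, and its log2 fold change of -0.31 (SE 0.327) became 0.01 without UMBO replicate 1.

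Nr4a1 encodes the orphan nuclear receptor Nur77, and Dusp1 encodes a dual-specificity phosphatase that switches off p38, JNK and ERK and thereby limits the signals that induce the family. Nr4a1 was measured at 75.6, 67.9 and 52.1 CPM in the vehicle libraries against 34.2 and 51.3 CPM in the UMBO libraries. UMBO replicate 2 and vehicle replicate 3 differed by less than 1 CPM, so the separation of the groups rested on a very small gap. Dusp1 was measured at 35.4, 32.2 and 23.6 CPM in the vehicle libraries against 20.4 and 22.1 CPM in the UMBO libraries. Here too the groups separated only by the distance from vehicle replicate 3. The log2 fold changes were -0.61 (SE 0.260) for Nr4a1 and -0.52 (SE 0.224) for Dusp1, both with an adjusted p of 0.497 (edgeR's quasi-likelihood test). A stretch of 11 exonic bases of Dusp1 overlaps Ergic1 on the opposite strand.

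The AP-1 subunits showed no common order of the libraries. Fos and Fosb encode the partners that must pair with a Jun protein to bind DNA, and Junb encodes one such Jun protein, and AP-1 is the family of such dimers. Fos, at chr12:85473890-85477273 (+), stood at 20.6, 20.4 and 17.2 CPM in the vehicle libraries, at 13.7 CPM in UMBO replicate 1 and at 32.8 CPM in UMBO replicate 2. The UMBO libraries were thus the lowest and the highest of the 5, 2.39-fold apart, and the vehicle libraries lay close together between them. Junb stood at 59.3, 64.2 and 38.2 CPM in the vehicle libraries and at 39.1 and 81.9 CPM in the UMBO libraries, with the same library highest. A stretch of 173 exonic bases of Junb overlaps Prdx2 on the opposite strand. Fosb stood at 12.2, 8.31 and 9.08 CPM in the vehicle libraries and at 9.55 and 7.80 CPM in the UMBO libraries, and unlike Fos it was lowest in UMBO replicate 2. The log2 fold changes were 0.26 (SE 0.369) for Fos, 0.17 (SE 0.375) for Junb and -0.18 (SE 0.260) for Fosb, with adjusted p values of 0.708, 0.821 and 0.706 (edgeR's quasi-likelihood test). Without UMBO replicate 2 the values were -0.50 for Fos and -0.46 for Junb, so both turned negative without that library.

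Ier2 encodes a small nuclear protein with a role in transcription that is induced by growth factors in many cell types. It was at 9.31, 13.1 and 6.86 CPM in the vehicle libraries, 8.33 CPM in UMBO replicate 1 and 34.5 CPM in UMBO replicate 2. UMBO replicate 1 lay inside the vehicle range and UMBO replicate 2 was 4.14 times as high as it, the widest gap between the UMBO libraries among the 10 genes. The log2 fold change was 1.13 (SE 0.593), with an adjusted p of 0.497 (edgeR's quasi-likelihood test), and it was -0.23 without UMBO replicate 2.

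Seen by library, vehicle replicate 1 was the highest for 7 of the 10 genes and UMBO replicate 2 for the other 3, while UMBO replicate 1 was the lowest for 7, vehicle replicate 3 for 2 and UMBO replicate 2 for 1. Relative to the vehicle mean, the median gene of the 10 stood at 0.24, 0.07 and -0.33 on the log2 scale with vehicle and at -0.65 and -0.32 in the UMBO libraries. UMBO replicate 2 therefore stood level with vehicle replicate 3. The vehicle libraries alone spanned most of that range. Reads of 2 genes compared within a library do not depend on how libraries are scaled, and these pairs were chosen after the values were seen. Arc reads per Fos read were 7.18, 5.04 and 4.57 in the vehicle libraries against 3.93 and 1.67 in the UMBO libraries. Egr1 reads per Fos read were 11.8, 8.52 and 7.41 against 6.50 and 3.40. In both pairs both UMBO libraries were below the vehicle libraries, and UMBO replicate 2 was the lowest.

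Levels were compared between genes only per kilobase of exon, as the vehicle mean of CPM per kb. Egr1 (40.5 ± 13.0, SD, n = 3) and Arc (35.9 ± 11.5) were the highest and differed by less than their SDs. Junb (23.4 ± 6.01) and Nr4a1 (18.6 ± 3.42) came next and also lay within the SD of Junb. Dusp1 (9.17 ± 1.85), Fos (8.26 ± 0.801), Ier2 (6.41 ± 2.07) and Npas4 (6.04 ± 1.75) formed a lower set in which each neighbor lay within the larger SD of the pair. Fosb (1.58 ± 0.327) and Egr2 (1.52 ± 0.161) were the lowest and did not differ beyond their spread.

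The scale mattered for the direction. Scaling by library size alone moved the median of all genes to 0.13 and that of the 10 genes to -0.28. Scaling to the summed counts of the 12 neuron markers, which were lower in UMBO replicate 2, moved the median of all genes to 0.69 and that of the 10 genes to 0.36. On that scale Fosb (0.50), Egr2 (0.52), Npas4 (0.03), Nr4a1 (0.20) and Dusp1 (0.22) had positive log2 fold changes, while Egr1 (-0.06) and Arc (-0.26) stayed negative. Scaling to the 10 striatal markers, an alternative added after the data were seen, gave a median of 0.04 for the 10 genes and 0.44 for all genes. Each of these scalings moved the 10 genes the same way from TMM but by unequal amounts. With neuron markers Ier2 went from 1.13 to 2.08 and Fosb from -0.18 to 0.50. These signs are to be read beside the median of all genes on the same scale, which is only an approximate reference.

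**Figure D2:**
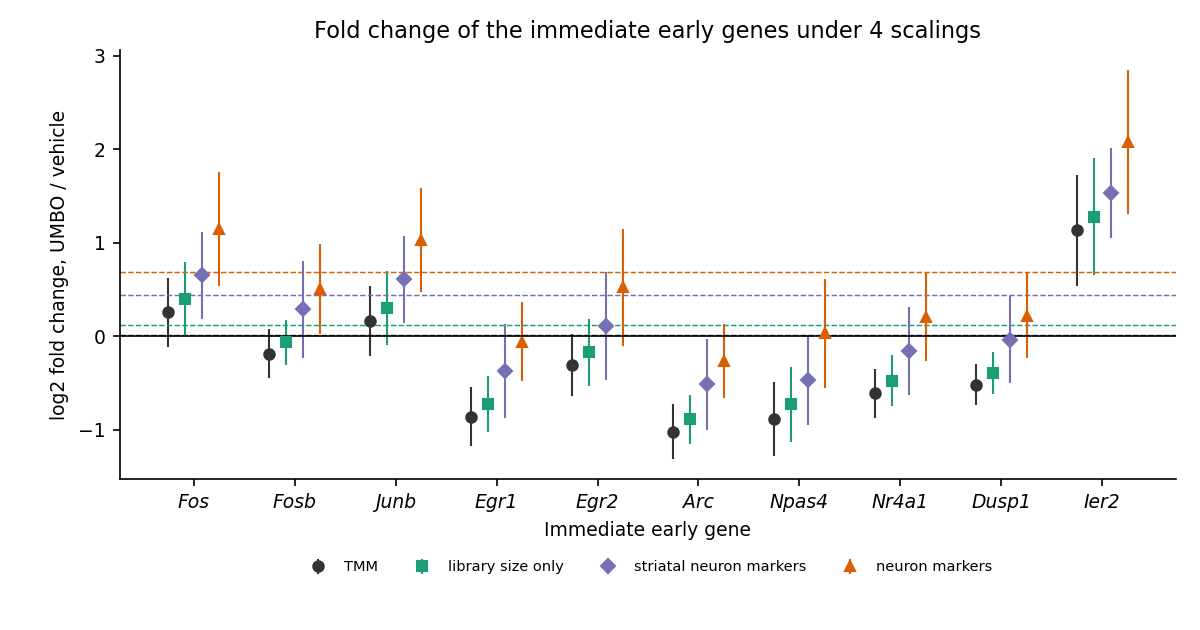
Log2 fold change (UMBO over vehicle) of the 10 genes under 4 scalings, TMM, library size only, striatal neuron markers and neuron markers, with bars for the SE and dashed lines for the median of all genes under each. Egr1 and Arc lie below 0 under all 4 scalings, and Fos, Junb and Ier2 lie above 0 under all 4.

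Per 1000 CPM of the striatal markers, Arc stood at 88.5, 66.1 and 76.5 CPM in the vehicle libraries and at 59.3 and 48.6 CPM in the UMBO libraries. Egr1 stood at 146, 112 and 124 CPM against 98.0 and 99.3 CPM. Both therefore remained below all vehicle libraries when set against the striatal markers. Set against the neuron markers, Arc was 13.3, 13.5 and 9.75 CPM per 1000 CPM in the vehicle libraries against 6.73 and 13.6 in the UMBO libraries, so UMBO replicate 2 was then the highest library and the groups overlapped. On the neuron scale 0 of the 10 genes had both UMBO libraries below the vehicle range (2.39% of all genes) and 1 (Fosb) had both above it (17.7% of all genes). On the striatal scale 2 genes lay below (Egr1 and Arc), against 0.793% of all genes, and 2 above (Junb and Ier2), against 36.2%.

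The median profile of the 10 genes over the libraries lay close to that of the striatal markers. Their median relative to the vehicle mean was 0.24, 0.07, -0.33, -0.65 and -0.32 on the log2 scale in vehicle replicates 1 to 3 and UMBO replicates 1 and 2, beside 0.26, 0.17, -0.39, -0.71 and -0.45 for the striatal list. The pan-neuronal list ran differently, at 0.23, -0.17 and -0.12 in the vehicle libraries against -0.12 and -0.90 in the UMBO libraries. Not all of the 10 genes followed their median, as Fos, Junb and Ier2 were highest in UMBO replicate 2 and Fosb was lowest there. Of the striatal markers, 5 of 10 had both UMBO libraries below the vehicle range, against 11.4% of all genes, and 8 had a negative log2 fold change, against 11585 of the 23592 genes tested, with a median of -0.57. The dopamine receptor gene Drd1 was at 57.8, 50.8 and 31.6 CPM against 30.2 and 29.2 CPM. Penk and Tac1, the peptide precursors of the indirect and direct pathway neurons, overlapped between the groups. The part of striatal tissue content in the levels of the 10 genes was not tested.

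**Figure D3:**
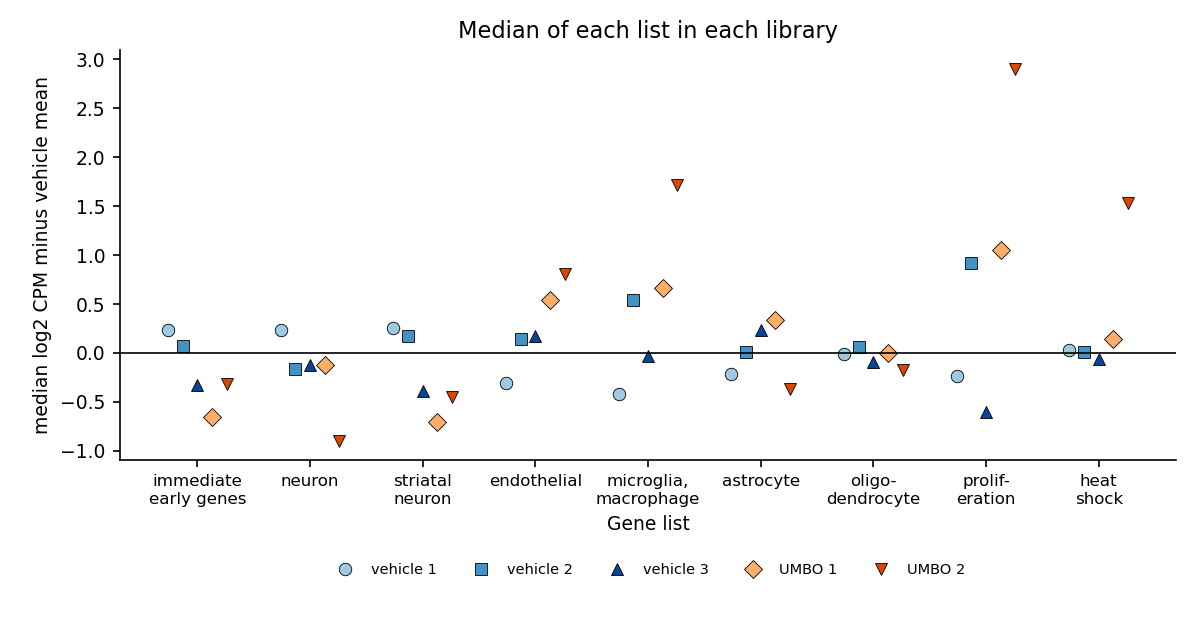
Median of each gene list in each library, as log2 CPM minus the vehicle mean of each gene. The medians of the immediate early genes and of the striatal neuron markers run alike, with vehicle replicate 1 highest and UMBO replicate 1 lowest. UMBO replicate 2 stands at 2.90 for the proliferation genes, 1.72 for the microglia and macrophage markers and 1.53 for the heat shock genes.

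The other genes of the pathway were taken in 4 lists, read against the same shares of all genes. Of 21 other rapid response transcription factors, 14 had positive and 7 negative log2 fold changes, with a median of 0.46 that was 0.03 without UMBO replicate 2. An unadjusted edgeR p under 0.05 was reached by 6 on the higher side (5.30% of all genes) and 3 on the lower side (2.06%). None passed the adjusted test of edgeR. DESeq2 gave 9 with an unadjusted p under 0.05, against 2639 of all 23591 genes in that test, and 0 adjusted. Jun, the AP-1 partner of Fos, was at 55.7, 62.9 and 52.9 CPM in the vehicle libraries against 90.8 and 93.6 CPM in the UMBO libraries. The groups separated with both UMBO libraries close together, and its log2 fold change of 0.69 (SE 0.163, unadjusted p of 0.00547) was 0.67 without UMBO replicate 2. Unlike Fos and Junb, Jun was higher in both UMBO libraries. Arc reads per Jun read were 2.66, 1.63 and 1.49 against 0.593 and 0.583. This pair too was chosen after the values were seen. Its order follows from Arc being lower and Jun higher in both UMBO libraries.

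Also on the higher side, Atf3, a stress-induced repressor and AP-1 relative, was at 1.02, 5.39 and 1.24 CPM against 3.76 and 31.4 CPM. Its log2 fold change of 2.79 was 0.56 without UMBO replicate 2. Klf2, a zinc finger factor prominent in endothelium, was at 6.04, 12.8 and 8.01 CPM against 13.6 and 21.6 CPM (0.98, and 0.61 without that library). Of the 10 endothelial markers, 9 had positive log2 fold changes (median 0.64) and 7 had both UMBO libraries above the vehicle range, against 11.5% of all genes, and their part in the Klf2 level was not tested. On the lower side were 2 further Egr genes and a clock gene. Egr3, a relative of Egr1 needed for muscle spindle formation, was at 153, 86.2 and 75.6 CPM against 62.3 and 30.4 CPM, a log2 fold change of -1.18 (SE 0.443). Egr4 was at 19.0, 16.9 and 12.8 CPM against 10.0 and 7.57 CPM, a log2 fold change of -0.88 (SE 0.262). Per1, a clock repressor that CREB also induces, was at 112, 94.9 and 94.5 CPM against 77.8 and 60.8 CPM. These 3 had the smallest edgeR p values on the lower side of the list. In all 3 both UMBO libraries lay below the vehicle range, and UMBO replicate 2 was the lower of the pair. Of the 21 genes, only these 3 lay below it, against 11.4% of all genes, and 3 lay above it, against 11.5%.

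Of 27 rapid response genes for signalling and RNA decay, 21 had positive and 6 negative log2 fold changes. Their median of 0.34 was 0.00 without UMBO replicate 2. An unadjusted edgeR p under 0.05 was reached by 2 on the higher side (5.30% of all genes) and 0 on the lower (2.06%). Those 2 were the growth arrest genes Gadd45b, at 9.95, 11.9 and 6.98 CPM against 12.9 and 26.4 CPM, and Gadd45g, at 9.79, 13.4 and 9.59 CPM against 13.0 and 36.1 CPM. Zfp36, which targets AU-rich transcripts of this family for decay, was at 4.95, 10.1 and 4.76 CPM against 7.55 and 26.7 CPM. In all 3 UMBO replicate 2 was the highest library by a wide margin. On the lower side the smallest p values belonged to Arl4d, Plk2 and Errfi1, with log2 fold changes of -0.35, -0.33 and -0.10, and the libraries of the groups overlapped for Plk2, a kinase of synaptic homeostasis, at 199, 135 and 120 CPM against 150 and 90.7 CPM.

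Later activity-regulated neuronal genes are induced after the transcription factors, and several of those listed here act at synapses. Of 15, 5 had positive and 10 negative log2 fold changes, with a median of -0.09. An unadjusted edgeR p under 0.05 was reached by 2 on the higher side (5.30% of all genes) and 2 on the lower (2.06%). Homer1, a postsynaptic scaffold, was at 190, 125 and 120 CPM against 97.7 and 68.8 CPM (log2 fold change -0.80, SE 0.297). Pcsk1, a prohormone convertase, was at 47.7, 27.0 and 43.0 CPM against 24.5 and 9.91 CPM (-1.19, SE 0.449). Nptx2, a pentraxin that clusters AMPA receptors, went the other way, at 45.7, 36.9 and 37.9 CPM against 51.6 and 77.9 CPM (0.69, SE 0.228). Baz1a, a chromatin remodelling subunit, was at 4.27, 7.45 and 4.32 CPM against 5.86 and 26.0 CPM, high in UMBO replicate 2 only. The next in each direction, Vgf (0.14) and Arpp21 (-0.70), did not reach that level.

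Of 21 upstream regulators, 6 had positive and 15 negative log2 fold changes, with a median of -0.26 that was -0.05 without UMBO replicate 2. Elk3, a ternary complex factor that binds beside SRF, was at 8.80, 15.0 and 10.1 CPM against 17.7 and 34.4 CPM (1.21, SE 0.364). Rps6ka1, the RSK1 kinase gene, was at 19.1, 25.3 and 22.0 CPM against 27.7 and 38.8 CPM (0.59, SE 0.222), and Map2k2, the MEK2 gene, had a log2 fold change of 0.47. Elk3 and Rps6ka1 were the 2 of 21 on the higher side with an unadjusted edgeR p under 0.05, against 5.30% of all genes. On the lower side Camk4, a nuclear kinase that phosphorylates CREB in neurons, was at 62.3, 30.6 and 37.4 CPM against 22.7 and 13.6 CPM (-1.26, SE 0.390). It was the 1 of 21 on that side with an unadjusted edgeR p under 0.05, against 2.06% of all genes. Mef2c (-0.93) and Rps6ka5, the MSK1 gene (-0.51), followed. The direction of the regulators thus differed between genes, and the levels of all genes in the 4 lists had adjusted p values of at least 0.497 in edgeR's quasi-likelihood test. The neuron, proliferation, microglia and heat shock sums given above were most extreme in UMBO replicate 2, and their part in these values was not tested.

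**Figure D4:**
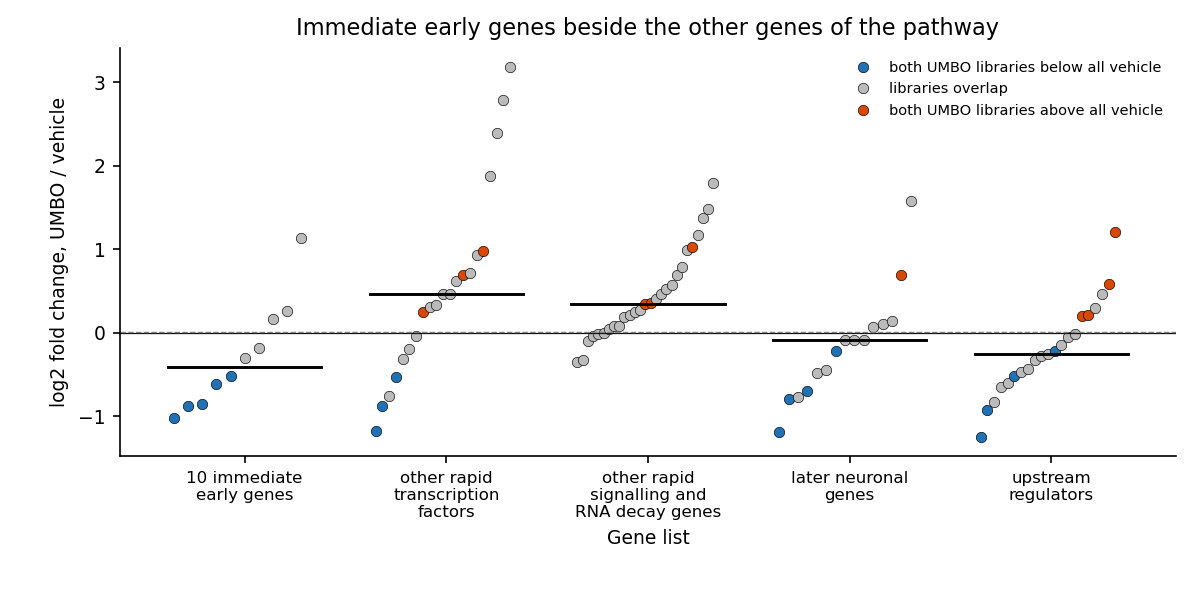
Log2 fold change (UMBO over vehicle) of every tested gene in the 10 immediate early genes and the 4 other lists, 1 point per gene, colored by whether the libraries of the groups overlapped. Black bars are list medians, -0.41 for the immediate early genes, 0.46 and 0.34 for the other rapid genes, -0.09 for the later genes and -0.26 for the regulators, and the dashed line is the median of all genes tested.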

How the data were processed

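Right hemispheres of GL261-bearing mice were sequenced (SMARTer mRNA-Seq, NovaSeq). Per the labels and the study's methods, the authors mapped reads with STAR 2.7.2a to GRCm38 and deposited raw counts per gene, 1 table per mouse. The annotation release and strand setting were not given in the sources used here, so reads of overlapping genes on opposite strands may be shared. Of 6 mice in the study's methods, 5 libraries were analysed here, and 0 count columns were left unused. The groups came from the labels. Ensembl identifiers were matched to symbols, positions and exon lengths in GENCODE M21, and 55480 of 55573 had one. Rows with no symbol held at most 0.0017% of counts.

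Counts were filtered with filterByExpr, normalized by TMM and tested with edgeR 4.0.16 (glmQLFit and glmQLFTest, R 4.3.3), UMBO against vehicle, with Benjamini-Hochberg adjustment over 23592 genes and a threshold of 0.05. The study's tool, DESeq2 1.42.0, was run as an alternative. The fit was tested on simulated data. CPM used TMM library sizes, and log2 CPM a prior count of 2. The named genes were the 10 genes, in each pathway list the 3 with the smallest p in each direction, and the 5 genes nearest in profile. Promoter windows were read from RefSeq tables. The 10 genes and the gene lists were chosen with earlier results of these data known. Alternatives were other scalings, other filters on low counts, a replicate block and each library left out.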

Additional observations from a re-analysis of the deposited data

How the results depend on the processing

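With 2 UMBO libraries, 1 of which stood apart, the limits lie in the number of mice and not in depth. No alternative that changed only the size factors to DESeq2's, the scaling to library size or the filter gave a gene an adjusted p under 0.05. Genes past that threshold numbered 42 with the DESeq2 Wald test, 1422 with striatal marker scaling, 2337 with the replicate block, and 0 to 4543 with 1 library left out (4543 without UMBO replicate 1, where the lone UMBO library is assumed to vary like the others). Unadjusted, the 1738 became 4418 with neuron marker scaling, 4129 with striatal marker scaling, 4100 with no filter on low counts, 2639 with DESeq2, 6134 with the block, and 296 (without vehicle replicate 1) to 10165 (without UMBO replicate 1). The cause was not tested. Higher and lower genes among the 1738 were 1251 and 487, against 1502 and 395 with library size only, 4393 and 25 with neuron marker scaling and 4071 and 58 with striatal marker scaling.

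The median of the 10 genes was 0.36 with neuron marker scaling and 0.039 with striatal marker scaling, and -0.66 to -0.32 with 1 library left out. Log2 fold changes that turned positive were, with neuron marker scaling, 0.50 (Fosb), 0.52 (Egr2), 0.032 (Npas4), 0.20 (Nr4a1) and 0.22 (Dusp1), and with striatal marker scaling 0.29 (Fosb) and 0.11 (Egr2), where the edgeR adjusted p of Ier2 was 0.0321. With 1 library left out, the sign changed for Fos (-0.50 to 0.73), Junb (-0.46 to 0.58, and -0.03 without vehicle replicate 3), Egr2 (-0.76 to 0.011) and Ier2 (-0.23 to 1.79, with an edgeR adjusted p of 0.0390 without UMBO replicate 1). The signs of Fosb, Egr1, Arc, Npas4, Nr4a1 and Dusp1 held in those fits. Fosb ran from -0.37 to -0.0042, and the latter value, without vehicle replicate 1, was close to no change.

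The groups share replicate numbers 1 and 2 only, with correlations of deviations from the group means of 0.453 and 0.760. With 2 UMBO libraries the deviations of 1 mirror those of the other, so the 2 correlations are not independent. Nothing in the sources says that a number marks a shared litter or day, so the numbers do not establish pairs. With the replicate block the 2337 genes were 1428 higher and 909 lower and included Egr1, Arc, Nr4a1 and Dusp1. The median of the 10 genes was then -0.56, and Junb was -0.13. Replicate number 3 occurs only with vehicle, so vehicle replicate 3 has its own term in that fit and adds nothing to the UMBO effect. The effect then rests on replicates 1 and 2 of each group with few degrees of freedom left, so these calls are weak ground.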

Other observations

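Among 13298 protein-coding genes outside the lists, 5 were nearest to the median profile of the 10 genes over the 5 libraries, by Euclidean distance of centered log2 CPM. The nearest was Slc35d3, a solute carrier family member, at 10.5, 8.63 and 7.26 CPM in the vehicle libraries against 5.29 and 7.12 CPM in the UMBO libraries (distance 0.0991). Serpina9 (0.179), Epor, the erythropoietin receptor gene (0.230), Arhgap10 (0.245) and Sp8, a zinc finger transcription factor gene (0.251), followed. All 5 had UMBO replicate 1 as the lowest library and vehicle replicate 1 as the highest, as had most of the 10 genes. That shared order follows from how the 5 were chosen. With 5 libraries a near profile is a description and carries no test.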
